A study of Homo sapiens with 4 samples.

Results

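S100 proteins and annexins are small families of calcium-binding proteins. The genes described here are S100A4, S100A6, S100A8, S100A9, S100A10, S100A11, S100A12, ANXA1, ANXA2 and ANXA5, which makes 10 of the 16490 genes in the expression table. They were chosen by name, and a gene's FPKM (RNA fragments counted relative to transcript length and to the mapped reads of the library) was summed over its RefSeq transcripts in each library. RNA-seq was performed on MV4-11, a human AML cell line, with 2 libraries made from cells with the control hairpin sh-NC and 2 from cells with sh-CEBPG#3, a hairpin against the leucine-zipper transcription factor CEBPG. In the labels, the control libraries are described by CEBPG presence and the others by CEBPG knockdown. The CEBPG hairpin was built in the lentiviral vector pLKO.1-puro, and stable lines were obtained by lentiviral infection and puromycin. The vector of the control hairpin is not stated in the sources used here. Only 1 CEBPG hairpin was sequenced, and an effect of loss of CEBPG and an effect of this hairpin cannot be told apart. Whether libraries of the same group stem from separate infections is not stated in the sources used here, so the p-values measure only the spread between these libraries, which may be technical.

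S100 proteins carry a pair of EF-hand motifs and mostly work as dimers. When calcium binds they expose a surface that docks onto target proteins. S100A8 and S100A9 form calprotectin, an abundant cytosolic complex of neutrophils and monocytes that is released as a danger signal in inflammation. Annexins bind membranes with acidic phospholipids when calcium is present, and the families meet in fixed complexes, the best known being that of ANXA2 with S100A10. In myeloid cells S100A8, S100A9 and S100A12 are markers of maturation towards monocytes and granulocytes, while S100A4, S100A6, S100A10 and S100A11 are found in many cell types.

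Upon CEBPG knockdown, ANXA2, S100A11 and ANXA5 rose and S100A9 and S100A10 fell, all by less than 2-fold. Of these, the S100A10 call was the least stable, being lost under 5 of the alternatives tried. S100A4, S100A6, S100A8 and ANXA1 did not pass the test. S100A12 was too low to be tested. CEBPG itself, the targeted gene, was at 30.4 and 33.6 FPKM in sh-NC and at 19.2 and 17.1 FPKM in sh-CEBPG#3, 56.8% of the control level (log2 fold change -0.78, standard error 0.09, Benjamini-Hochberg adjusted p = 8.88e-05 in limma).

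Calls were made with limma on log2(FPKM + 1) across the 12142 genes whose mean over the 4 libraries reached 0.5 FPKM, at an adjusted p under 0.05. The added 1 shrinks the fold changes of genes with low values. Of the 10 genes, 9 passed the filter on low values. Of these 9, 5 were called (55.6%), while 42.2% of all genes tested were called. By direction, 3 of the 9 were higher (33.3%, against 18.5% of all genes) and 2 were lower (22.2%, against 23.8% of all genes). The study's methods name DESeq2, with a fold change beyond 2 in either direction and p under 0.05, without saying whether p was adjusted. With these limits, but the unadjusted p of limma on log2(FPKM + 1) in place of DESeq2, 0 of the 9 passed, against 3.41% of all genes. The outcome of the study's own test can differ. Without the fold limit, 5 of the 9 had an unadjusted p under 0.05 (55.6%), as did 50.6% of all genes. The sh-NC and sh-CEBPG#3 values did not overlap for 8 of the 9 (88.9%), which was the case for 71.7% of all genes tested, so separate groups were common in this table. The median log2 fold change of the 9 genes was 0.07, beside -0.04 over all genes tested.

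The libraries within a group were close to each other. Pearson's r of log2(FPKM + 1) across genes was 0.993 within sh-NC, 0.994 within sh-CEBPG#3 and 0.962 to 0.964 across the groups. FPKM totals were between 364353 and 389766. Read depth is unknown, since FPKM values carry no counts, and no detection floor or counting interval is given. Markers of the MV4-11 line were present, as all 8 of CD33, FLT3, HOXA9, MEIS1, PTPRC, SPI1, CSF1R and LYZ were tested. None of the 4 T cell markers (CD3D, CD3E, CD3G and CD2) or 3 epithelial markers (EPCAM, CDH1 and KRT19) searched had a row in the table. Of the 3 megakaryocyte markers (PF4, PPBP and ITGA2B) 1 was listed, at 0.0576 to 0.138 FPKM. CD79A, a B cell marker, did pass the filter, with 0.763 and 0.707 FPKM in sh-NC and 0.978 and 1.33 FPKM in sh-CEBPG#3 (adjusted p = 0.1 in limma), and its part in the results was not tested.

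**Figure D1:**
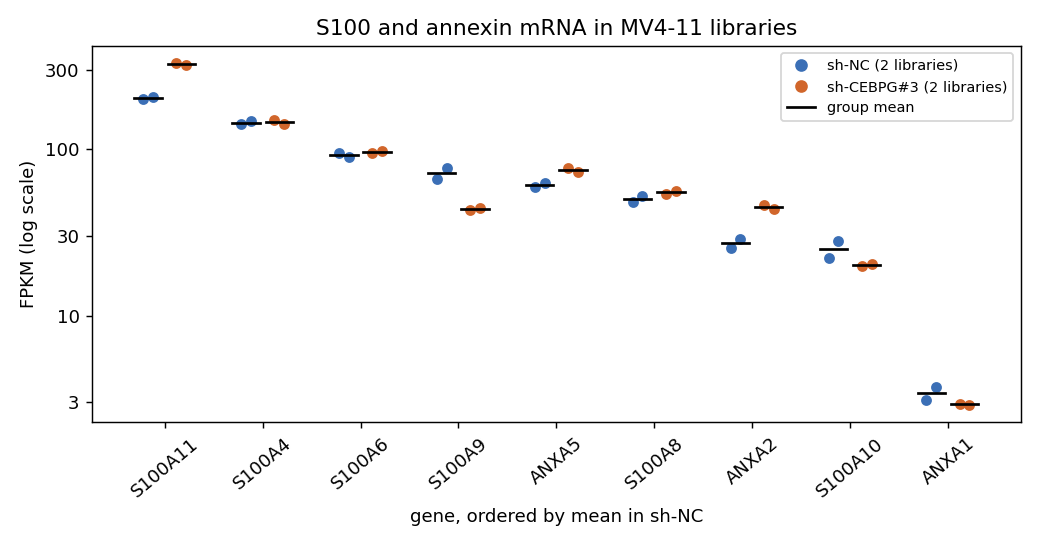
FPKM (log scale) of the 9 genes with a mean above the filter, with 1 point per library, blue for sh-NC and orange for sh-CEBPG#3, and a line at each group mean. S100A11, ANXA5 and ANXA2 sit higher in both sh-CEBPG#3 libraries and S100A9 sits lower, while the S100A4 points overlap. S100A12, at 0 to 0.315 FPKM, is not drawn.

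The upstream sequences of S100A8, S100A9, S100A11 and ANXA2 are shown because the calprotectin pair differed in response and because ANXA2 and S100A11 had the largest increases among the 9 genes tested of the 10 described. All are the 250 bases before the annotated transcription start, on the strand of the gene, from RefSeq on GRCh38.p14. The labels give hg38, the same build. Capitals mark matches, on either strand, to the motif letters searched, which were TTGCNNAA for C/EBP factors, TGATGNAA for the composite element of C/EBP and ATF factors, GAAANNGAA for the interferon response element, GAGGAA for PU.1, TGANTCA for AP-1 and TATAAA for the TATA box. The motifs were chosen after the values were known, and no 2 matches overlap in the sequences shown.
S100A8 (chr1:153391074-153391323, minus strand): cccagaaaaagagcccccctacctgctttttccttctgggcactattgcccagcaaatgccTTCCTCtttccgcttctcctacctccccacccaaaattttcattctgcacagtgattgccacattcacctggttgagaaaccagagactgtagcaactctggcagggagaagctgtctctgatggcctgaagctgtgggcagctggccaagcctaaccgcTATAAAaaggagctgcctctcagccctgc
S100A9 (chr1:153357604-153357853, plus strand): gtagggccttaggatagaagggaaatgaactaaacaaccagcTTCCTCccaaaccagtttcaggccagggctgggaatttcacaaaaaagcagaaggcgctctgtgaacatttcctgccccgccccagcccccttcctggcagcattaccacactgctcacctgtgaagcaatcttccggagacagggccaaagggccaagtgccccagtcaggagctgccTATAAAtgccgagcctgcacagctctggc
S100A11 (chr1:152037005-152037254, minus strand): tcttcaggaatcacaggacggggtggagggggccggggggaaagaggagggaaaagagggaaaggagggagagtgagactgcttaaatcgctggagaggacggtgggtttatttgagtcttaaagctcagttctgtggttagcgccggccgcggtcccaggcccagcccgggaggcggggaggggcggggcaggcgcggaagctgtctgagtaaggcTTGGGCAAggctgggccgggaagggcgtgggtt
ANXA2 (chr15:60397987-60398236, minus strand): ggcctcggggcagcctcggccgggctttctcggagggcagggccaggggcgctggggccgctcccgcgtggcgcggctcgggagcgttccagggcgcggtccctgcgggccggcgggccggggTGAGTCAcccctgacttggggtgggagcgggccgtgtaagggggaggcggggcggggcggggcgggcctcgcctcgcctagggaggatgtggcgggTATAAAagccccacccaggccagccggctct

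In both S100A8 and S100A9 a TATA box began 29 bases before the start, and the PU.1 letters were found on the opposite strand, 189 bases before the start of S100A8 and 208 bases before that of S100A9. ANXA2 had a TATA box at 31 bases and an AP-1 match at 127 bases before the start. S100A11 had no TATA box match, and its single marked stretch is a C/EBP match on the opposite strand at 33 bases. Over the promoters of all 10 genes, the C/EBP letters were found in 3 (S100A11, S100A12 and ANXA1), the composite element in 0, the interferon response element in 1 (ANXA1), PU.1 in 3, AP-1 in 2 and the TATA box in 6. Among 35116 RefSeq promoters of the same length the shares were 9.05%, 3.14%, 6.88%, 23.6%, 6.57% and 10.7% in the same order. A match is a description of letters and not a binding site.

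The 7 S100 genes lie on chromosome 1 and each has 3 exons in its canonical GENCODE transcript. S100A10 (151982915 to 151993859) and S100A11 (152032506 to 152037004) stand at one end of the cluster. S100A9 (153357854 to 153361023), S100A12 (153373711 to 153375621) and S100A8 (153390032 to 153391073) follow side by side, and then S100A6 (153534599 to 153535991) and S100A4 (153543621 to 153545806). Between the outermost S100A genes RefSeq has 78 other genes, of which 4 are in the table and 1, LOC101928034, passed the filter (log2 fold change 0.37, standard error 0.14, adjusted p = 0.0614 in limma). These 4 genes summed to at most 1.20 FPKM in a library, so nearly all the signal measured in this stretch came from S100 genes. Genes of opposite direction lie in it, with S100A10, whose call was lost under 5 of the alternatives, and S100A11 at the same end. The annexins have 13 exons each and lie on different chromosomes, ANXA1 on chromosome 9 (73151865 to 73170393), ANXA2 on chromosome 15 (60347151 to 60397986) and ANXA5 on chromosome 4 (121667946 to 121696980).

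The myeloid S100 proteins come first. S100A9, the larger subunit of calprotectin, had 66.1 and 77.4 FPKM in sh-NC and 43.1 and 44.6 FPKM in sh-CEBPG#3. Both sh-CEBPG#3 values lie below both sh-NC values. The mean level went from 71.8 ± 7.94 FPKM to 43.8 ± 1.06 FPKM (SD, n = 2 each), 61.0% of the control level, with a log2 fold change of -0.70 (standard error 0.09, adjusted p = 0.000159 in limma). The decrease was larger than the spread between libraries.

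S100A8, the other subunit, had 48.1 and 52.2 FPKM in sh-NC and 54.3 and 56.2 FPKM in sh-CEBPG#3. Its values were a little higher in both sh-CEBPG#3 libraries, without overlap, but the difference did not pass the test (log2 fold change 0.14, standard error 0.07, adjusted p = 0.164 in limma). The ratio of S100A9 to S100A8 was therefore above 1 in both control libraries, at 1.37 and 1.48, and below 1 in both knockdown libraries, at 0.793 and 0.792. On the log2 scale the ratio was lower by 0.85 in sh-CEBPG#3 (the difference, sh-CEBPG#3 minus sh-NC, was -0.85). An exact permutation test (two-sided) gave p = 0.333, the smallest value that 2 libraries against 2 allow, so this ratio is a description. S100A12, a further calgranulin and a ligand of the receptor AGER, was listed at 0.315 and 0 FPKM in sh-NC and at 0.265 and 0.250 FPKM in sh-CEBPG#3. At this level no direction can be read, and with no filter on low values its adjusted p was 0.54 in limma.

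**Figure D2:**
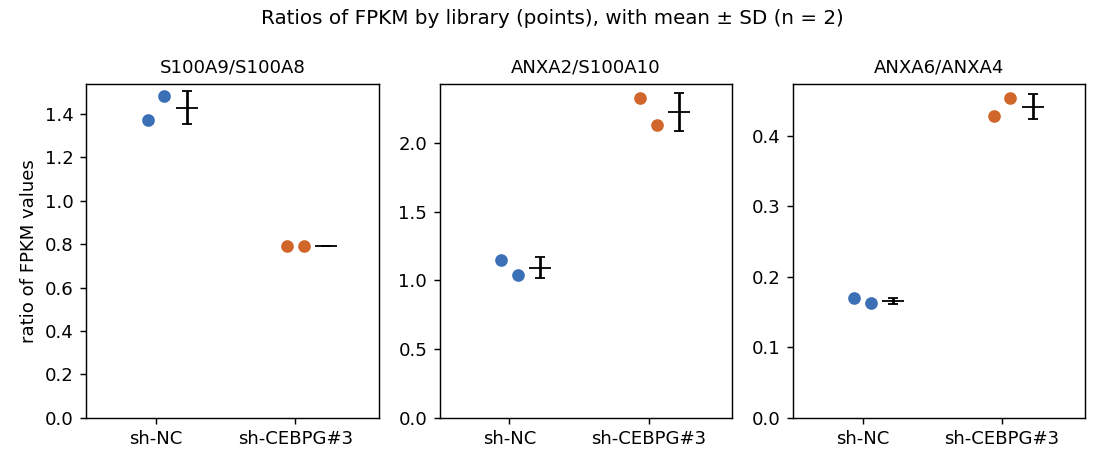
Ratio of the FPKM values of S100A9 to S100A8, ANXA2 to S100A10 and ANXA6 to ANXA4 in each library (points, axes from 0), with the mean ± SD of each group (n = 2) beside them. The S100A9 to S100A8 ratio goes from a mean of 1.43 to 0.793, that of ANXA2 to S100A10 from 1.09 to 2.23 and that of ANXA6 to ANXA4 from 0.166 to 0.442, with no overlap between groups.

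Among the S100 genes with a broad tissue range, S100A11 was the most abundant. It encodes calgizzarin, which docks onto ANXA1 and ANXA2 at membranes. It had 202 and 206 FPKM in sh-NC and 331 and 323 FPKM in sh-CEBPG#3. The 2 groups are far apart relative to their spread, with means of 204 ± 3.42 FPKM and 327 ± 5.73 FPKM (SD, n = 2 each), or 160% of the control level. Its log2 fold change came to 0.68 (standard error 0.07, adjusted p = 3.64e-05 in limma).

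S100A10, which lacks calcium-binding capacity and holds a pair of ANXA2 molecules in a heterotetramer at the cell surface, had 22.3 and 27.9 FPKM in sh-NC and 19.8 and 20.6 FPKM in sh-CEBPG#3. The sh-NC libraries differed from each other by more than the gap between the group means. Its log2 fold change came to -0.29 (standard error 0.10, adjusted p = 0.0417 in limma), close to the threshold. Without sh-NC replicate 2, the higher control library, it was -0.14 with an adjusted p = 0.292. The call was also lost without sh-CEBPG#3 replicate 1 (adjusted p = 0.137), without sh-CEBPG#3 replicate 2 (adjusted p = 0.0752), with no filter on low values (adjusted p = 0.137) and per transcript (adjusted p = 0.225).

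S100A4, a motility protein that binds the non-muscle myosin heavy chain MYH9, had 142 and 149 FPKM in sh-NC and 151 and 142 FPKM in sh-CEBPG#3. These values overlap. Its log2 fold change came to 0.01 (standard error 0.07, adjusted p = 0.915 in limma) and turned to -0.01 with equal totals and below 0 with quantile normalization. S100A6 (calcyclin), whose partners include CACYBP, had 94.7 and 89.9 FPKM in sh-NC and 95.7 and 97.7 FPKM in sh-CEBPG#3 (log2 fold change 0.07, standard error 0.07, adjusted p = 0.469). For neither gene was a difference beyond the spread between libraries seen, and the estimate for S100A6 also turned below 0 with quantile normalization.

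ANXA2, which acts in endocytosis, exocytosis and the surface activation of plasminogen, had 25.6 and 29.0 FPKM in sh-NC and 46.1 and 43.8 FPKM in sh-CEBPG#3. Its mean rose from 27.3 ± 2.39 to 45.0 ± 1.6 FPKM (SD, n = 2 each), or 165% of the control level, with a log2 fold change of 0.70 (standard error 0.08, adjusted p = 0.000121 in limma). Its size was close to that of the S100A9 decrease, and S100A9 had the larger one with equal totals (-0.72 against 0.68), with quantile normalization (-0.72 against 0.69), without sh-NC replicate 1 (-0.81 against 0.61) and without sh-CEBPG#3 replicate 1 (-0.671 against 0.665). ANXA2 and S100A10, partners in 1 complex, thus differed in direction, though the S100A10 call was lost under 5 of the alternatives. The ratio of ANXA2 to S100A10 was 1.15 and 1.04 in sh-NC and 2.33 and 2.13 in sh-CEBPG#3 (exact two-sided permutation test, p = 0.333, the smallest it can give).

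ANXA2 is listed by 3 RefSeq transcripts. NM_004039 had 18.1 and 20.3 FPKM in sh-NC and 35.3 and 33.4 FPKM in sh-CEBPG#3, and NM_001002857 had 7.19 and 8.76 FPKM against 10.8 and 10.3 FPKM. Both were higher in both sh-CEBPG#3 libraries. Tested by transcript, the log2 fold change was 0.81 for NM_004039 (standard error 0.09, adjusted p = 0.0226 in limma) and 0.37 for NM_001002857 (standard error 0.12, adjusted p = 0.148), so the increase of the second did not pass. NM_001136015 was at 0 to 0.376 FPKM. NM_004039 made up 70.1% of ANXA2 in sh-NC and 76.4% in sh-CEBPG#3, and the difference in share was not tested.

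The processed pseudogene ANXA2P2 can share reads with ANXA2. It had 1.94 and 2.96 FPKM in sh-NC and 4.0 and 4.51 FPKM in sh-CEBPG#3 and was called higher (log2 fold change 0.62, standard error 0.14, adjusted p = 0.00591 in limma), a call lost with no filter (adjusted p = 0.0635) and per transcript (adjusted p = 0.139). How reads were split between the 2 is not given in the sources used here, and their part in either result was not tested. Counted as 1 gene with ANXA2P2, ANXA2 was called as well.

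**Figure D3:**
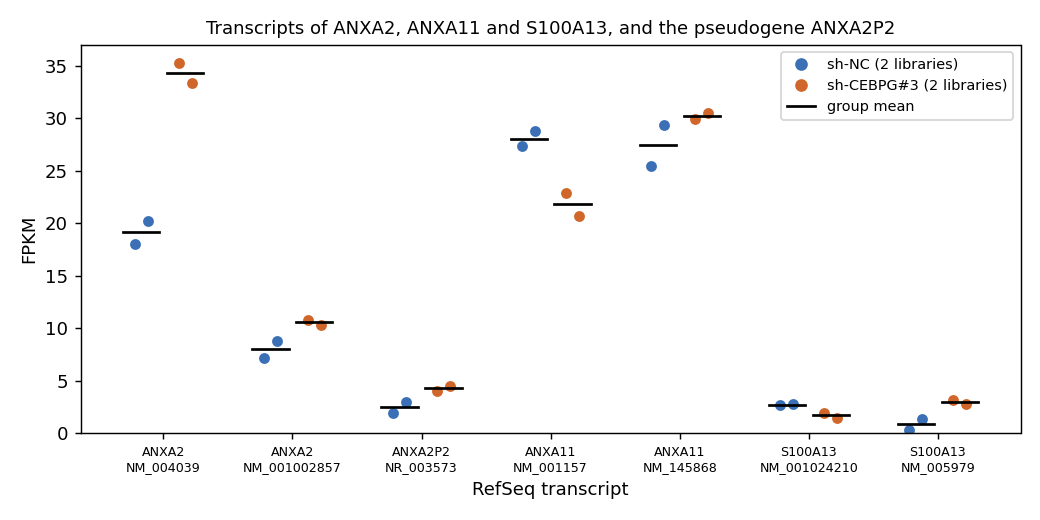
FPKM (axis from 0) of single RefSeq transcripts of ANXA2, ANXA11 and S100A13 and of the pseudogene ANXA2P2, with 1 point per library (blue sh-NC, orange sh-CEBPG#3) and a line at each group mean. In FPKM, NM_004039 of ANXA2 shows the largest rise of those drawn, from a mean of 19.2 to 34.3. NM_005979 of S100A13 has the larger fold (0.858 to 2.98 FPKM), with sh-NC values far apart (0.317 and 1.40 FPKM). The 2 main ANXA11 transcripts differ in direction.

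ANXA5, a phosphatidylserine-binding annexin used in labelled form to stain apoptotic cells, had 59.8 and 62.8 FPKM in sh-NC and 77.4 and 73.5 FPKM in sh-CEBPG#3. Both knockdown libraries are above both controls. Its log2 fold change came to 0.30 (standard error 0.07, adjusted p = 0.00829 in limma), 123% of the control level. Without sh-CEBPG#3 replicate 1 it was 0.26 and no longer passed (adjusted p = 0.105), and per transcript the adjusted p was 0.0687.

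ANXA1, a glucocorticoid-induced inhibitor of phospholipase A2 that acts on formyl peptide receptors to end inflammation, was low, with 3.11 and 3.69 FPKM in sh-NC and 2.94 and 2.90 FPKM in sh-CEBPG#3. The lower values in sh-CEBPG#3 did not pass the test (log2 fold change -0.16, standard error 0.11, adjusted p = 0.253 in limma). S100A11, its partner, was present at 64.8 and 55.9 times the FPKM of ANXA1 in sh-NC and at 113 and 112 times in sh-CEBPG#3.

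By mean FPKM in sh-NC, the order was S100A11 (204), S100A4 (145), S100A6 (92.3), S100A9 (71.8), ANXA5 (61.3), S100A8 (50.2), ANXA2 (27.3), S100A10 (25.1), ANXA1 (3.40) and S100A12 (0.158). Of these neighbours, ANXA2 and S100A10 overlapped between libraries and the others did not. In sh-CEBPG#3, S100A9 moved from rank 4 to rank 7, behind ANXA5, S100A8 and ANXA2, with the values of ANXA2 and S100A9 overlapping. Summed over the 7 S100 genes the level was 575 and 602 FPKM in sh-NC and 696 and 684 FPKM in sh-CEBPG#3. Summed over ANXA1, ANXA2 and ANXA5 it was 88.5 and 95.5 FPKM against 126 and 120 FPKM. In both sums the groups are apart, and the S100 sum moved with S100A11 while S100A9 fell.

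The rest of both families was examined from lists of all members. Of 20 S100 genes, 13 had a row and 10 were tested. Of the 10, 1 was higher (10%) and 2 were lower (20%), against 18.5% and 23.8% of all genes tested. These 3 are S100A11, S100A9 and S100A10, described above, and none of the other 4 tested passed, with 0 of the 4 at an unadjusted p under 0.05 (50.6% of all genes). S100P, named after the placenta, had 56.9 and 51.8 FPKM in sh-NC and 56.3 and 56.1 FPKM in sh-CEBPG#3 (adjusted p = 0.63 in limma). S100A1 had 8.25 and 10.1 FPKM against 11.1 and 10.1 FPKM (adjusted p = 0.164), S100A13 had 5.71 and 4.82 FPKM against 5.80 and 4.43 FPKM (adjusted p = 0.82), and S100A3 was below 1 FPKM. The median log2 fold change over the 10 tested was 0.06. Within the family total, S100A11 made up 31.2% and 30.8% in sh-NC and 43.1% and 42.8% in sh-CEBPG#3, and S100A9 made up 10.2% and 11.5% against 5.59% and 5.89%.

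Within S100A13 the transcripts differed. NM_005979 had 0.317 and 1.40 FPKM in sh-NC and 3.15 and 2.81 FPKM in sh-CEBPG#3, while NM_001024210 had 2.68 and 2.77 FPKM against 1.95 and 1.42 FPKM. Another transcript, NM_001024211, had 2.11 and 0.0876 FPKM in sh-NC and 0.501 and 0.0522 FPKM in sh-CEBPG#3. The split among transcripts thus also differed between the sh-NC libraries. None of these passed an adjusted p under 0.05 per transcript (0.119, 0.171 and 0.593 in limma, in the order given). The gene's sum did not pass either, as given above.

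Of 13 annexins, 10 were tested, with a median log2 fold change of 0.23. Of the 10, 5 were higher (50%) and 1 was lower (10%), against 18.5% and 23.8% of all genes tested. ANXA2 and ANXA5, described above, are among the higher ones. ANXA6, a large annexin with a doubled core that links membranes to cholesterol traffic, had 41.2 and 42.8 FPKM in sh-NC and 81.1 FPKM in both sh-CEBPG#3 libraries. This is 193% of the control level and the largest increase of either family (log2 fold change 0.93, standard error 0.07, adjusted p = 6.3e-06 in limma). ANXA4, which binds the membranes of secretory cells, went the other way, with 244 and 262 FPKM against 189 and 178 FPKM (log2 fold change -0.46, standard error 0.07, adjusted p = 0.000718). ANXA4 was the most abundant annexin in these cells, at 51.7% and 51.3% of the annexin total in sh-NC and 37.0% and 36.5% in sh-CEBPG#3.

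The ratio of ANXA6 to ANXA4 was 0.169 and 0.163 in sh-NC and 0.429 and 0.454 in sh-CEBPG#3. The sum of all annexins, 471 and 510 FPKM in sh-NC and 510 and 488 FPKM in sh-CEBPG#3, overlapped between the groups. So the annexin total was similar in the libraries while its makeup differed. ANXA7 was higher at 49.9 and 47.0 FPKM against 37.5 and 43.4 FPKM (log2 fold change 0.26, adjusted p = 0.0352), a call lost under 6 of the alternatives, among them the replicate block (adjusted p = 0.0763), no filter (adjusted p = 0.0972) and without sh-NC replicate 1 (log2 fold change 0.15, adjusted p = 0.158). ANXA8 was higher at 7.23 and 6.34 FPKM against 3.93 and 5.02 FPKM (log2 fold change 0.51, adjusted p = 0.00604), and the call was lost with no filter (adjusted p = 0.056) and per transcript (adjusted p = 0.127). ANXA8 has a near-identical copy, ANXA8L1 (1.72 and 1.55 against 1.80 and 2.31 FPKM), and values of the pair are uncertain for that reason.

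ANXA11 did not pass the test as a sum, with 53.5 and 58.9 FPKM against 53.8 and 52.2 FPKM (adjusted p = 0.423 in limma, and adjusted p = 0.0467 with quantile normalization, log2 fold change -0.11). Its transcript NM_001157 had 27.3 and 28.8 FPKM in sh-NC and 22.9 and 20.7 FPKM in sh-CEBPG#3, while NM_145868 had 25.4 and 29.4 FPKM against 29.96 and 30.5 FPKM. Neither passed per transcript (adjusted p = 0.0795 and adjusted p = 0.395). ANXA9 was near 1 FPKM.

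**Figure D4:**
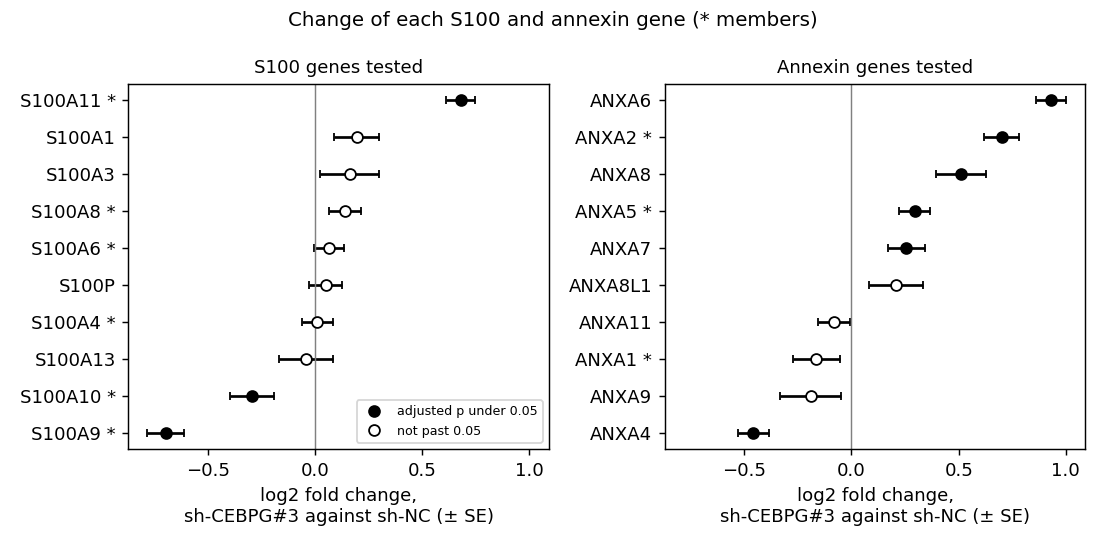
Log2 fold change of sh-CEBPG#3 against sh-NC on the log2(FPKM + 1) scale, with its standard error, for the 10 S100 genes (left) and the 10 annexins (right) that were tested. Filled points have an adjusted p under 0.05 in limma, and an asterisk marks the members, that is the genes the report is about. Among S100 genes the filled points are S100A11, S100A10 and S100A9, and among annexins ANXA6 is highest at 0.93 and ANXA4 lowest at -0.46.

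Receptors and binding partners of these proteins were taken from a list of 29 genes, of which 21 were tested. On it 11 were higher (52.4%) and 2 were lower (9.52%), against 18.5% and 23.8% of all genes tested. Its median log2 fold change was 0.30. TLR4 and AGER, receptors for released S100 proteins, were low, at 0.292 to 0.410 FPKM and 0.115 to 0.256 FPKM. Formyl peptide receptors, the receptors of ANXA1, were as low, with FPR1 at 0 to 0.504 FPKM and no row for FPR2 and FPR3. BSG, a membrane protein that binds S100A9, was abundant, with 338 and 381 FPKM in sh-NC and 507 and 493 FPKM in sh-CEBPG#3 (log2 fold change 0.48, standard error 0.08, adjusted p = 0.000816). CD33, also reported to bind S100A9, had 26.8 and 28.3 FPKM against 37.2 and 34.3 FPKM (log2 fold change 0.37, adjusted p = 0.00424), and its call was lost without sh-CEBPG#3 replicate 1 (adjusted p = 0.0506) and per transcript (adjusted p = 0.101). BSG and CD33, named after their values were seen, were both higher while S100A9 mRNA was lower.

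Of the oxidase subunits, whose assembly calprotectin assists in phagocytes, NCF1 had 24.9 and 26.3 FPKM in sh-NC and 103 and 98.5 FPKM in sh-CEBPG#3 (log2 fold change 1.94, standard error 0.07, adjusted p = 5.7e-08), although NCF1 has near-identical pseudogenes that can share its reads. CYBB rose from 0.377 and 0.537 to 2.30 and 2.03 FPKM (log2 fold change 1.12, adjusted p = 0.000116). CYBA was lower at 550 and 556 FPKM against 617 and 646 FPKM (log2 fold change -0.19, adjusted p = 0.0439), a call lost under 6 of the alternatives, the replicate block among them (adjusted p = 0.218).

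Around plasminogen activation, the process served by the ANXA2 and S100A10 complex, the urokinase receptor PLAUR had 18.1 and 20.1 FPKM in sh-NC and 56.3 and 51.7 FPKM in sh-CEBPG#3 (log2 fold change 1.46, standard error 0.08, adjusted p = 1.1e-06). Urokinase itself, PLAU, had 42.2 and 46.0 FPKM against 55.3 and 52.2 FPKM (log2 fold change 0.28, adjusted p = 0.0152), and the plasminogen receptor PLGRKT had 4.72 and 5.16 FPKM against 6.27 and 6.30 FPKM (log2 fold change 0.30, adjusted p = 0.0279). All 3 moved in the direction of ANXA2, but the PLGRKT call was lost under 5 of the alternatives, among them without sh-NC replicate 1 (adjusted p = 0.147), and the PLAU call under 3, the replicate block (adjusted p = 0.0522), per transcript (adjusted p = 0.0966) and without sh-CEBPG#3 replicate 1 (adjusted p = 0.137). PLG had no row, and PLAT was at 0.0610 to 0.138 FPKM. HLTF, a chromatin protein that binds the ANXA2 and S100A10 complex, was lower (log2 fold change -0.38, standard error 0.09, adjusted p = 0.00609), but not per transcript (adjusted p = 0.129). AHNAK and MYH9, cytoskeletal partners of S100A10 and S100A4, and CACYBP did not pass the test (adjusted p from 0.194 to 0.82). CD36, a scavenger receptor that binds calprotectin with its fatty acid load, rose from 1.54 and 1.37 to 5.16 and 4.33 FPKM (log2 fold change 1.22, adjusted p = 2.95e-05).

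A list of 16 myelomonocytic genes was set beside S100A8, S100A9 and S100A12. The list does not separate stages of maturation and is not a measure of it. Of the 16, 14 were tested, with a median log2 fold change of 0.68, and all 14 log2 fold changes were above 0. Of the 14, 12 were called higher (85.7%) and 0 lower, against 18.5% and 23.8% of all genes tested. ITGAM (log2 fold change 0.09, adjusted p = 0.451 in limma) and CSF3R (0.11, adjusted p = 0.26) were not called. The 4 largest increases were those of LYZ (lysozyme), with 567 and 610 FPKM against 3126 and 2982 FPKM, and of PRTN3, CD68 and ELANE, whose log2 fold changes were 1.38, 1.14 and 1.04 (adjusted p at most 1.37e-05 in limma). The smallest increase called on this list was that of FCGR1A (log2 fold change 0.51), while S100A8 and S100A9 had log2 fold changes of 0.14 and -0.70. The decrease of S100A9 thus stood beside increases of other myeloid genes in the same libraries. In bulk samples a change in the makeup of the cells and a change in RNA per cell cannot be told apart.

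Genes most like ANXA2 and S100A11 were sought by the Euclidean distance between log2(FPKM + 1) values centred over the 4 libraries. Among the genes described, ANXA2 was taken as having the largest change (0.7005, with S100A9 close behind at -0.6955) and S100A11 as the called gene with the highest level. Closest to ANXA2 were PDLIM7, HEXA and TMC8 (distances 0.0217, 0.0221 and 0.0255), with log2 fold changes of 0.71, 0.69 and 0.73. Closest to S100A11 were CSF2RB, TNFRSF10B and GSN (distances 0.0171, 0.0234 and 0.0334), with log2 fold changes of 0.68, 0.67 and 0.70. Over 4 libraries in 2 groups this likeness mostly reflects a log2 fold change of similar size.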

How the data were processed

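MV4-11 cells carrying sh-NC or sh-CEBPG#3 were sequenced, with 2 libraries each. After read filtering and mapping with HISAT (HISAT2 2.0.5 and hg38 in the submitters' processing notes), the authors deposited 1 FPKM value per library for every RefSeq transcript. The program that computed FPKM and the annotation release are not given in the sources used here. FPKM hold no counts, and among 1027 transcripts under 0.06 FPKM in both sh-NC libraries at most 0.487% shared a ratio (to 3 decimals), so whole reads could not be recovered. Of 28780 transcripts, 199 had no value. The rest were summed by symbol to 16490 genes.

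Genes whose mean reached 0.5 FPKM (12142 in number) were tested on log2(FPKM + 1) with limma 3.58.1 in R 4.3.3 (lmFit, eBayes with a trend, no block), with Benjamini-Hochberg adjustment over all of them. The scripts were tested on simulated data. Genes are named as follows: the listed S100 genes and annexins by family, up to 4 largest increases and decreases among called, non-overlapping genes of the other lists, and the 3 nearest genes by pattern; other partners named were chosen after their values were seen. The genes described and the lists were chosen with earlier results of these data known. Promoters and motifs were read with Python 3.11.15. Alternatives were no filter or a minimum mean of 1 FPKM, a pseudocount of 0.1 or 0.01, equal totals, quantile normalization, the replicate block, each library left out, and single transcripts. Adding ANXA2P2 to ANXA2 was chosen after seeing the data. Some marker lists of other cell types are not reported here.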

Additional observations from a re-analysis of the deposited data

How the results depend on the processing

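With 2 libraries per group, all p-values depend on the variance model of limma, and a library left out leaves a lone sample assumed to vary like the other group. ANXA2, S100A11 and S100A9 kept their direction and their call under all alternatives run, and S100A8 and ANXA1 kept their direction and stayed uncalled. Of all genes 5128 were called (4031 to 5013 with a library left out), and per transcript, where the most abundant transcript stood for its gene, 1285 were. Of the genes described here 5 were called, 3 to 5 with a library left out (3 without sh-CEBPG#3 replicate 1) and 3 per transcript. S100A10 (-0.29) was not called with no filter (-0.29) and per transcript (-0.29). Over the fits with a library left out, it lay between -0.45 and -0.14. ANXA5 (0.30) was not called per transcript (0.30) and lay between 0.26 and 0.33 in the same fits. S100A4 (0.0111) was -0.0149 with equal totals and -0.0024 with quantile normalization, and lay between -0.0349 and 0.057 in the same fits. S100A6 (0.0671) was -0.0051 with quantile normalization. The cause was not tested. S100A10 and ANXA5 are each listed by a single transcript, so per transcript their FPKM were unchanged. Only the variance model and the adjustment differed for them. The prior degrees of freedom, the weight limma gives to its variance model, were 8.02 in the main fit. They were 2.58 with no filter and 2.17 per transcript. Neither depth nor counts are known, so low genes such as S100A12 could not be weighted by depth. Same-numbered libraries deviated together with a correlation of 0.061, and nothing else ties them. With the replicate block 4761 genes and 5 of the genes described here were called.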
